A study of Rattus norvegicus with 4 samples.

Results

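Cytosolic ribosomal protein genes were followed in rat hepatic stellate cells in which endoglin had been targeted with an siRNA. Members were the gene probes whose name was Rps or Rpl followed by a number, or was Rpsa, Rplp0, Rplp1 or Rplp2, with the ribosomal S6 kinase names left out. The array carried 75 such names on 112 probes, among 35561 gene names. There were 31 small-subunit names, 42 large-subunit names and 2 names of the ribosomal stalk. The brightest usable probe stood for each gene. Of the 75 members, 71 were tested, among 25546 genes tested in all. Rpl14, Rpl9, Rps16 and Rps24 were not tested because the scanner software had marked their single probe as an outlier on at least 1 array.

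A cytosolic ribosome is built from ribosomal RNA and a large family of small basic proteins, most of which are needed in equal number in every particle. The mRNAs of these proteins are among the most abundant in dividing cells. Most begin with a run of pyrimidines, the 5′ terminal oligopyrimidine tract, through which growth signals that pass through mTOR set their translation. Probes for such abundant mRNAs give bright spots on an array.

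Hepatic stellate cells store vitamin A in the healthy liver and lay down matrix once activated, and endoglin is an accessory receptor of TGF-beta signalling. The 3 kinds of cells were untreated, transfected with an siRNA that targets endoglin, or transfected with a control siRNA. Each of 4 2-colour arrays carried untreated or endoglin siRNA RNA in Cy5 and control siRNA RNA in Cy3, and both Cy5 groups had 1 array with RNA of 1 animal and 1 array with RNA pooled from 3 animals. The sources used here do not give strain, sex, age, days in culture, siRNA sequences or the time of harvest.

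It is not stated if the pool included the single animal, or if 1 control RNA served several arrays. The p-values therefore measure the spread between 2 arrays a group, which may be partly technical. The dyes were not swapped, so dye and group cannot be told apart in a ratio to control siRNA. The difference between endoglin siRNA and untreated sets ratios of the same dye orientation against each other. The arrays shared 1 slide and 1 scan. Between 61.9% and 93.3% of the 43379 gene spots of an array were well above background, depending on the array and dye, and 0 were saturated. The targeted gene checked the labels of the endoglin siRNA arrays. Endoglin (Eng) had a log2 ratio to control siRNA of -3.08 and -1.72 on the endoglin siRNA arrays, a mean of -2.40 ± 0.26 (SE, n = 2; limma adjusted p = 0.00521). On the untreated arrays it was -0.36 and -0.42 (adjusted p = 0.609), and the direction of their ratios rested on the labelled dyes alone.

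Start-site sequences were read from RefSeq for the assembly GRCr8, in which 60 of the 75 members had a promoter entry. The 6 below are shown as examples from both sides of the range of ratios described in the following paragraphs: Rps23, Rplp1, Rpl35 and Rps6 had high ratios to control siRNA, and Rps15 and Rpsa had low ones. Rpl8, which was also high, had no entry. Each runs 5′ to 3′ from 20 bases before the RefSeq start to 10 bases after it. Capitals mark the longest run of C and T that touches the 5 bases on either side of the start.
Rps23: ccttgtgggtccttcctgCCTCTCTTCTCT
Rplp1: tgcgcgcaggcgcatgtgaTCCTTTCCTCa
Rpl35: ggccccgCCCCTTCCTCTTTCTCTCgaacc
Rps6: ttcgtgacgcctcctaggcggTCggctgtg
Rps15: gcagccgctgacaccgCTTCCTTTTCCCag
Rpsa: cccgtcctttccgcgctaCCCTggaacggg

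These windows lie at chr2:23814497-23814526 (plus strand, Rps23), chr8:71290863-71290892 (minus strand, Rplp1), chr3:43165912-43165941 (minus strand, Rpl35), chr5:106420531-106420560 (minus strand, Rps6), chr7:10068106-10068135 (minus strand, Rps15) and chr8:128728859-128728888 (plus strand, Rpsa). The run was 21 bases long at Rps23, where it continued past the window, 18 at Rpl35 and 12 at Rps15. It was 2 bases long at the annotated start of Rps6 and 4 at that of Rpsa. Long and short runs thus stood at both ends of the range. A run of 8 or more C or T was present at 37 of the 60 members (61.7%) and at 1633 of 19005 promoters (8.6%). The 19005 hold a single promoter for each protein-coding gene with a full-length entry in the RefSeq table. Among members that were higher under endoglin siRNA than under control siRNA, 10 of 15 with an entry had such a run, and among the other tested members 24 of 41 had one.

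Other letters were searched on both strands from 250 bases before to 50 bases after the start. CCGGAAG, the core that Ets factors such as GABP bind, was in 31.7% of the members' promoters and in 11.2% of all promoters so counted. GCCATNTT, a core bound by YY1, was in 15.0% and 8.0%. GGGCGG, the GC box, was in 56.7% and 43.1%. TATAAA was in 8.3% and 13.1%, and CCAAT in 25.0% and 38.4%. A match to these letters is a description of the window and not a binding site.

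In cells given the endoglin siRNA, 18 of the 71 members were higher than in cells given the control siRNA and 5 were lower (limma across all genes, Benjamini-Hochberg adjusted p under 0.05). Among all genes tested, 5.24% were higher and 2.85% lower. The members' shares were 25.4% and 7.04%. At an unadjusted p under 0.05, 33 members (46.5%) differed, against 23.1% of all genes. The median log2 ratio of the members was 0.05, against 0.02 for all genes, and single members ranged from -0.65 (Rps15) to 0.94 (Rps6). In untreated cells, 11 members were higher than in control siRNA cells and 0 were lower, where 0.431% of all genes were higher and 0.266% lower. At an unadjusted p under 0.05, 43 members (60.6%) differed in that comparison, against 13.6% of all genes. The median of the members was 0.17 against 0.00 for all genes, with a range from -0.51 (Rps15) to 1.04 (Rps23). Both comparisons have control siRNA in Cy3 and may share control RNA, so the values are given side by side and not as 2 independent observations. Arrays of RNA from many cells cannot tell less RNA per cell from fewer cells that make it.

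Many of these calls depended on having all arrays. Leaving out an untreated array does not change an endoglin siRNA ratio, only the shared spread and its degrees of freedom. In every fit with 1 array left out, the 18 higher members under endoglin siRNA stayed positive and the 5 lower ones negative. The 11 higher members in untreated cells stayed positive too. Fewer members passed under endoglin siRNA in these fits than with all arrays. In untreated cells fewer passed when an untreated array was dropped, and more when an endoglin siRNA array was dropped. Calls among all genes moved in the same directions, except under endoglin siRNA without the pooled endoglin siRNA array, where they rose. The lone array left in a group was assumed to vary like the other group. On both endoglin siRNA arrays 36 members had a positive ratio and 20 a negative one, and on both untreated arrays 52 were positive and 9 negative. These are 50.7%, 28.2%, 73.2% and 12.7% of the members. Of all genes, 42.0% were positive and 27.4% negative on both endoglin siRNA arrays, and 29.6% and 31.9% on both untreated arrays.

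**Figure D1:**
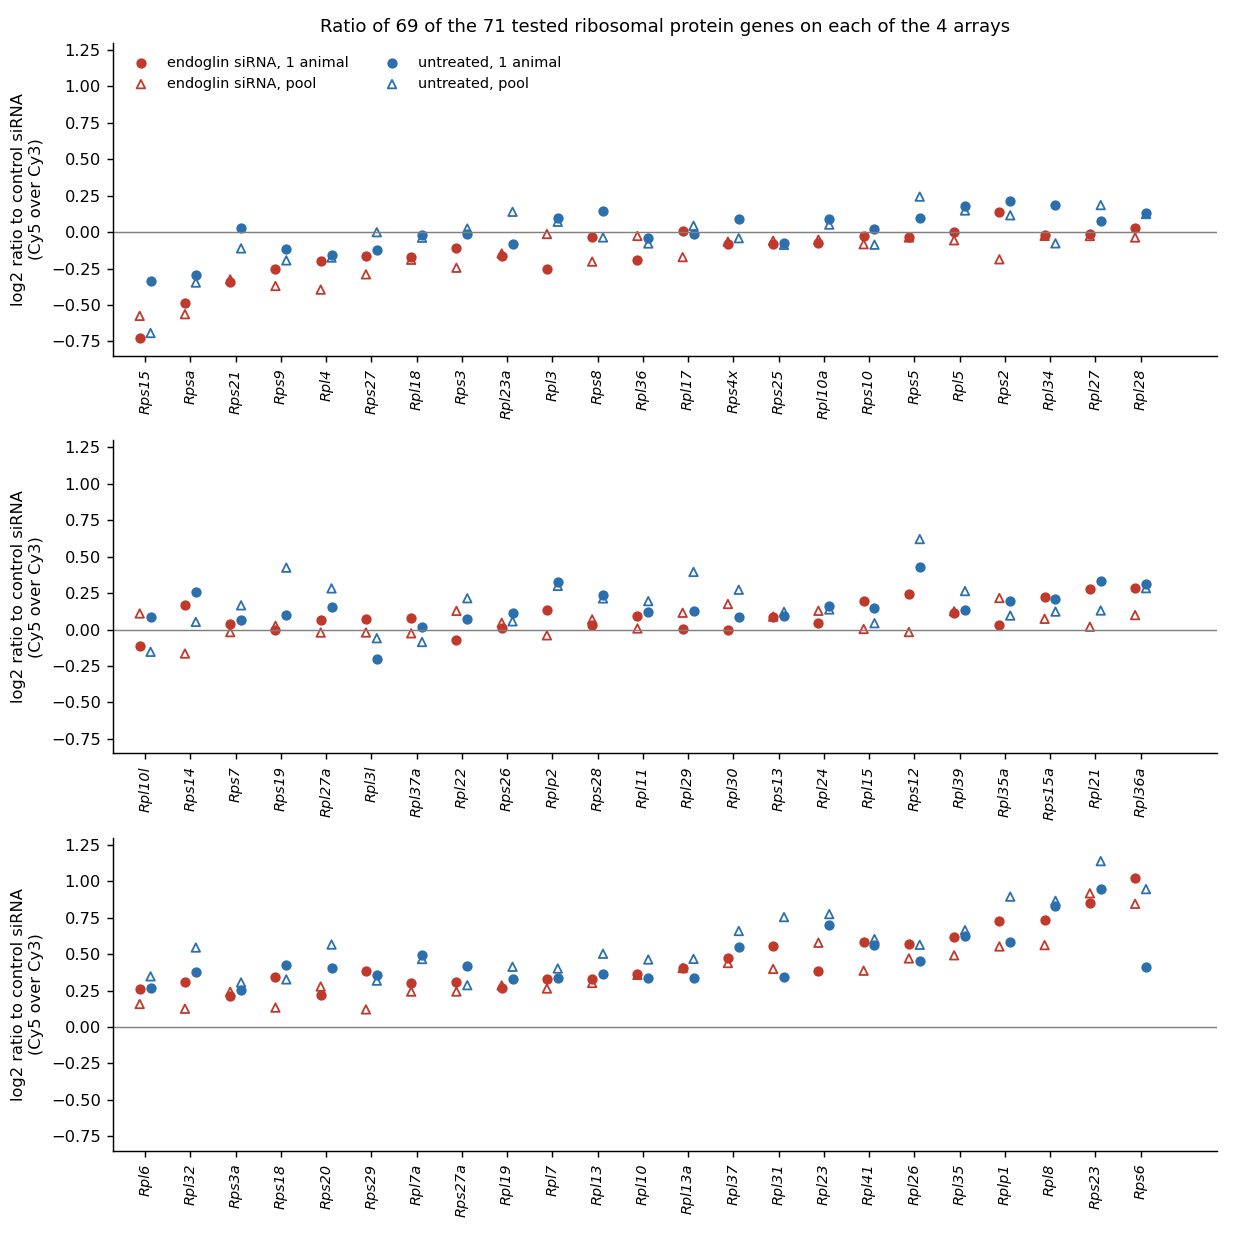
Log2 ratio to control siRNA (vertical axis) of 69 of the 71 tested members on each array, ordered by their mean under endoglin siRNA. Circles are arrays with RNA of 1 animal and triangles are pools of 3 animals; red is endoglin siRNA and blue is untreated. Rps15 and Rpsa lie below 0 on every array, and Rps23, Rpl8 and Rps6 lie at the top.

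Members of the large subunit made up most of the higher calls. Under endoglin siRNA, 13 of 40 were higher and 1 lower, with a median of 0.09. In untreated cells 8 were higher and 0 lower, with a median of 0.19. Rpl8, which lines the peptidyl transferase region, had a log2 ratio of 0.73 and 0.56 on the endoglin siRNA arrays and of 0.83 and 0.87 on the untreated arrays (1 animal first, then the pool, as in all following pairs). Both groups lay well above 0 and did not overlap each other. The means were 0.65 ± 0.07 (SE, n = 2; limma adjusted p = 0.00492) and 0.85 ± 0.07 (adjusted p = 0.00809).

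Rpl35, which sits at the rim of the peptide exit tunnel, had 0.62 and 0.49 under endoglin siRNA and 0.63 and 0.66 in untreated cells. Its means were 0.55 (limma adjusted p = 0.00588) and 0.65 (adjusted p = 0.0153). Rpl26, also at the tunnel exit, had 0.57 and 0.47 against 0.45 and 0.56, so the groups overlapped. It passed in both comparisons with means of 0.52 (limma adjusted p = 0.00756) and 0.51 (adjusted p = 0.0309). Rpl23 had 0.38 and 0.58 under endoglin siRNA and 0.70 and 0.77 in untreated cells, and the groups did not overlap. Its means were 0.48 (limma adjusted p = 0.0118) and 0.74 (adjusted p = 0.0152).

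Rpl41, which encodes one of the shortest known proteins, had 0.58 and 0.39 under endoglin siRNA and 0.56 and 0.60 in untreated cells. Rpl37 had 0.48 and 0.44 against 0.55 and 0.66. Both genes passed in both comparisons, with limma adjusted p of 0.0110 and 0.0269 for Rpl41 and of 0.00969 and 0.0177 for Rpl37. Rpl7a and Rpl13 also passed in both. Rpl31, Rpl13a, Rpl10, Rpl7 and Rpl19 passed under endoglin siRNA, with means from 0.28 to 0.48, and in untreated cells their means ran from 0.37 to 0.55 with limma adjusted p from 0.0518 to 0.0664. That difference in calls was not a tested difference between the groups.

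Rpl4, which reaches into the exit tunnel with a long loop, was the 1 large-subunit gene that was lower. It had -0.20 and -0.39 under endoglin siRNA, a mean of -0.30 ± 0.07 (limma adjusted p = 0.0463), and -0.16 and -0.17 in untreated cells (adjusted p = 0.364). All 4 arrays were below 0. Next to it among the lowest of the subunit were Rpl18 at -0.18 and Rpl23a at -0.16, and neither passed (limma adjusted p = 0.122 and 0.256).

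The small subunit held both ends of the range. Of its 29 tested members, 4 were higher and 4 lower under endoglin siRNA, with a median of 0.01. In untreated cells 2 were higher and 0 lower, with a median of 0.16. Rps23, a protein of the decoding centre, had 0.85 and 0.92 under endoglin siRNA and 0.95 and 1.14 in untreated cells. Its means of 0.88 ± 0.07 and 1.04 ± 0.07 (limma adjusted p = 0.00357 and 0.00602) correspond to 1.84-fold and 2.06-fold the control. Rps23 was above 0.8 on every array, and its untreated arrays lay above its endoglin siRNA arrays.

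Rps6, the substrate of the ribosomal S6 kinases, had 1.03 and 0.85 under endoglin siRNA and 0.41 and 0.95 in untreated cells. The endoglin siRNA mean of 0.94 ± 0.12 passed (limma adjusted p = 0.00809) and the untreated mean of 0.68 ± 0.12 did not (adjusted p = 0.0624). The low untreated value came from the 1-animal array. On that array the Rps6 spot was also dimmer in both dyes, with 158975 in Cy5 and 34667 in Cy3, against 327654 to 365151 in Cy5 and 44718 to 48830 in Cy3 on the other arrays. Its part in the result was not tested.

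Rps27a, which is made as a fusion with ubiquitin, passed under endoglin siRNA with 0.31 and 0.24 (limma adjusted p = 0.0469). In untreated cells Rps27a had 0.42 and 0.29 (adjusted p = 0.0664). Rps20 passed in untreated cells, with 0.40 and 0.57 (adjusted p = 0.0349), and had 0.22 and 0.28 under endoglin siRNA (adjusted p = 0.0691).

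Rps15, which sits in the head of the small subunit and has a part in its export from the nucleus, was the lowest member in both comparisons. It had -0.73 and -0.57 under endoglin siRNA and -0.34 and -0.69 in untreated cells, so the groups overlapped. Its mean under endoglin siRNA was -0.65 ± 0.09 (limma adjusted p = 0.0106), or 0.637 of the control, and in untreated cells it was -0.51 ± 0.09 (adjusted p = 0.0649). Its second probe had -0.04 under endoglin siRNA, so the probes of Rps15 disagreed in size. The mean over its probes was -0.35 and did not pass (limma adjusted p = 0.0670).

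Rpsa, also known as the laminin receptor, had -0.49 and -0.56 under endoglin siRNA and -0.29 and -0.35 in untreated cells. The groups did not overlap. Its mean of -0.52 ± 0.06 passed under endoglin siRNA (limma adjusted p = 0.00625) and its mean of -0.32 in untreated cells did not (adjusted p = 0.0760). Its second probe had -0.40 and -0.26 in the same order. Rps21 had -0.34 and -0.32 under endoglin siRNA (adjusted p = 0.0254) and 0.03 and -0.11 in untreated cells (adjusted p = 0.849). Rps9 had -0.25 and -0.37 (adjusted p = 0.0319) against -0.12 and -0.19 (adjusted p = 0.361). Rps27, at -0.16 and -0.29, did not pass (adjusted p = 0.0928). Rps25, among the 6 lowest in untreated cells at -0.08, did not pass either (adjusted p = 0.656).

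The stalk proteins recruit the elongation factors to the ribosome. Rplp1 had 0.73 and 0.55 under endoglin siRNA and 0.59 and 0.89 in untreated cells, with overlapping groups. It passed in both, with means of 0.64 ± 0.09 and 0.74 ± 0.09 (limma adjusted p = 0.00970 and 0.0269). Rplp2, its partner in the stalk, had 0.14 and -0.04 against 0.33 and 0.30, and passed in neither (adjusted p = 0.738 and 0.0965). Rplp0, which anchors the pair, was not on the array under that name. A probe named Arbp, which the RefSeq table lists as Rplp0, fell outside the rule and is in none of the counts. It had -0.47 and -0.45 under endoglin siRNA (adjusted p = 0.0153) and -0.17 and -0.41 in untreated cells (adjusted p = 0.152). The 3 stalk genes therefore did not share a direction.

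The paralogues Rpl3l and Rpl10l, which in other work are made mainly in muscle and testis, stayed near 0. Rpl3l had 0.07 and -0.02 under endoglin siRNA and -0.20 and -0.06 in untreated cells. Rpl10l had -0.11 and 0.11 against 0.09 and -0.15. Neither passed in any comparison, with limma adjusted p of at least 0.474. The Rpl3l probe was dim, with a log2 brightness of 8.08 against a median of 8.52 for all genes and 15.8 for the members. The RefSeq table assigns the Rpl10l name to Rpl10l1, and the chosen probes of Rpl36a and Rpl37 to Rpl36al1 and Rpl37l1. Of the 71 chosen probes, 56 list at least 1 predicted gene model besides the named gene and 33 list 3 or more, so a ratio may mix near-identical copies.

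Endoglin siRNA and untreated cells did not differ at any single member by the test across all genes. Of the 71, 0 were higher and 0 lower by limma, where 0.0352% of all genes were higher and 0.0509% lower. At an unadjusted p under 0.05 there were 8 members (11.3%) against 8.22% of all genes. Among them were Rps12, Rps21, Rplp2, Rpl23 and Rps20, and all 8 were lower under endoglin siRNA. That count moved with the processing. It was 2 (2.82%) without background correction, against 12.9% of all genes. With the log ratios of the scanner software it was 0, against 10.9%. With a loess span of 0.7 it was 27 (38.0%), against 8.87%. The direction was common: 62 of the 71 differences were negative, against 41.4% of all genes. The median difference was -0.11 on the log2 scale for the members and 0.02 for all genes. Other bright genes shared the direction. Among the brightest 1% of genes tested, the median difference was -0.13 for 39 members and -0.14 for 217 other genes. Both endoglin siRNA arrays lay below both untreated arrays in 41 members and above them in 1, where 11.5% of all genes lay below and 24.3% above.

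Rps12, a small-subunit protein, had the largest negative difference. Its log2 ratios to control siRNA were 0.25 and -0.02 under endoglin siRNA and 0.43 and 0.62 in untreated cells, and the groups did not overlap. The difference was -0.41 ± 0.12 (SE; limma adjusted p = 0.373). Within the 1-animal arrays it was -0.19 and within the pooled arrays -0.64. After Rps12 came Rps21 (-0.29), Rplp2 (-0.27), Rpl23 (-0.26), Rps19 (-0.25) and Rpl32 (-0.24). Rps6 had the largest positive difference, 0.26 (adjusted p = 0.808), made of 0.61 within 1 animal and -0.10 within the pools. Rpl3l, Rpl37a and Rpl10l were also positive, with differences of 0.16, 0.06 and 0.03. The probes of Rpl3l and Rpl37a were dim. Their log2 brightness was 8.08 and 7.85, against a median of 8.52 for all genes.

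The RNA sources were not equally firm. Within the 1-animal arrays 57 of 71 members were lower under endoglin siRNA, with a median difference of -0.09. Under 11 other ways of processing, that median stayed between -0.12 and -0.06 in 1 animal. Some of these could not move it. The 1-animal arrays had 0 spots far below background, and the filter on dim probes removed no chosen member probe. The deposited table repeats the log ratios of the scanner software. Within the pooled arrays 62 members were lower, with a median of -0.17. That value depended on the background correction and normalization. Part of it came with 10 spots whose signal lay more than 100 units below their local background, 6 on the pooled untreated array and 4 on the pooled endoglin siRNA array. They are no member's spots, but they enter the fit of the background model. Without them the median difference within the pools was -0.01, with 36 of 71 members lower, and the count of members with endoglin siRNA below untreated on all arrays fell from 41 to 20, against 18.5% of all genes. The overall median became -0.05. With those spots kept, the median within the pools was -0.0040 without background correction (37 lower), 0.01 with scaling between arrays (35 lower), 0.01 with the log ratios of the scanner software (33 lower) and -0.45 with a loess span of 0.7 (65 lower). Median centring turned the direction in the pools, where the median was 1.98 and 0 members were lower, while in 1 animal 46 of 71 stayed lower. Its fitted differences were positive for all 71 members, with a median of 0.96 for the members and 0.26 for all genes.

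**Figure D2:**
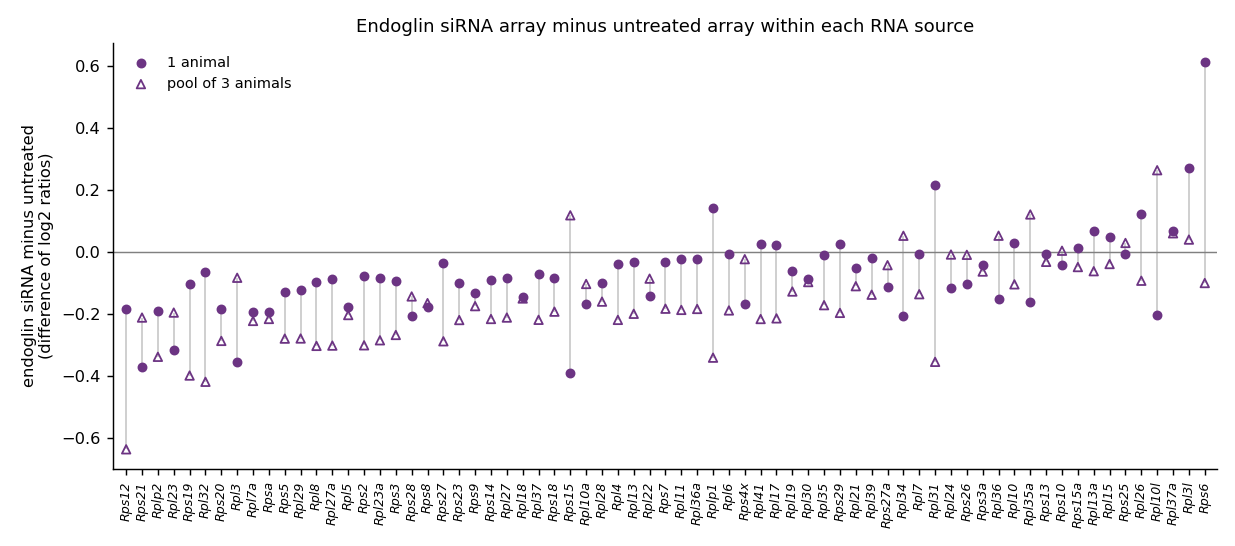
Difference of log2 ratios, endoglin siRNA minus untreated (vertical axis), for 69 of the 71 members within the 1-animal arrays (circles) and within the pooled arrays (triangles), ordered by the fitted difference. Most points lie below 0, and Rps6 and Rpl31 show the widest gaps upward in 1 animal against the pool.

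Macrophage markers moved between the same arrays. All 14 tested markers of Kupffer cells and macrophages had a positive mean ratio in untreated cells, with a median of 0.98 and 7 that passed, among them Lyz at 1.70 (limma adjusted p = 0.0398), Aif1 at 1.40 (adjusted p = 0.0162), Tyrobp at 1.34 (adjusted p = 0.0340) and Laptm5 at 1.21 (adjusted p = 0.0398). The difference between endoglin siRNA and untreated was negative in 13 of the 14, and 1 passed. This was C1qa, a complement gene of macrophages, at -1.09 (adjusted p = 0.0390). Cd14 went the other way. It was higher under endoglin siRNA than under control siRNA at 0.55 (adjusted p = 0.0181), and its difference from untreated was 0.05. Emr1 and Clec4f had 1.01 and 0.92 on the 1-animal endoglin siRNA array and 0.02 and 0.03 on the pooled one. The list's summed signal, as background-subtracted and dye-normalized by the scanner software, was 1.89 and 3.18 times that of control siRNA on the untreated arrays, and 1.081 and 1.097 times on the endoglin siRNA arrays. For the ribosomal protein genes the same sums gave 1.07 and 1.03 times in untreated cells and 1.03 and 1.05 times under endoglin siRNA. The part of these cells in the members' ratios was not tested. Of the hepatocyte markers 8 of 12 were among the genes tested, with a median log2 brightness of 8.06 against 8.52 for all genes. Their highest untreated mean was 0.09, and Cyp2e1 had 0.48 under endoglin siRNA (adjusted p = 0.0109).

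Ratios were given by brightness as well. Brightness here is the mean log2 signal of both dyes of a spot before normalization, a property of the spot and not a level of the gene. Of the 71 chosen probes, 66 were among the brightest 10% of genes tested and 39 among the brightest 1%. Spearman's correlation between brightness and ratio across the 71 members was 0.644 under endoglin siRNA and 0.796 in untreated cells. It was -0.236 for the difference between the groups, and that sign moved with the processing. It was 0.267 without background correction, 0.264 without the spots far below background and 0.325 with scaling between arrays. With the log ratios of the scanner software it was 0.176, and with a loess span of 0.7 it was -0.569. The correlations with the ratios to control siRNA stayed positive, at 0.392 and 0.346 with the log ratios of the scanner software. These are descriptions across genes that share arrays, and genes are not independent replicates.

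Members were split into 3 parts by brightness, with 24, 24 and 23 genes. Their median log2 ratios under endoglin siRNA were -0.04, 0.08 and 0.27 from dim to bright, and in untreated cells 0.03, 0.22 and 0.40. In the brightest part 12 of 23 members (52.2%) were higher under endoglin siRNA and 8 (34.8%) in untreated cells. The 85 other genes of the same brightness had medians of 0.28 and 0.46, and 41.2% and 32.9% of them were higher. The difference between endoglin siRNA and untreated was negative in 20 of these 23 members and in 74 of the 85 other genes. Its medians were -0.14 and -0.18. For these members the median became -0.01 without the spots far below background and 0.02 with the log ratios of the scanner software. It was 0.17 with scaling between arrays and -0.33 with a loess span of 0.7. In the middle part 6 and 3 of 24 members were higher, and 203 other genes of that brightness had medians of 0.04 and 0.14 with 14.3% and 4.9% higher. In the dimmest part no member was higher, and other genes of that wide range had medians of 0.04 and -0.01. In the brightest 1% of all genes, 39 members had medians of 0.24 and 0.37, and 17 and 11 of them were higher. The 217 other genes had 0.18 and 0.29, and 58 and 40 of them were higher. The part of brightness in the members' ratios was not tested. In the wider brightest 10%, 66 members had medians of 0.09 and 0.19 and 2489 other genes had -0.02 and -0.02, but the members sat toward its upper end.

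**Figure D3:**
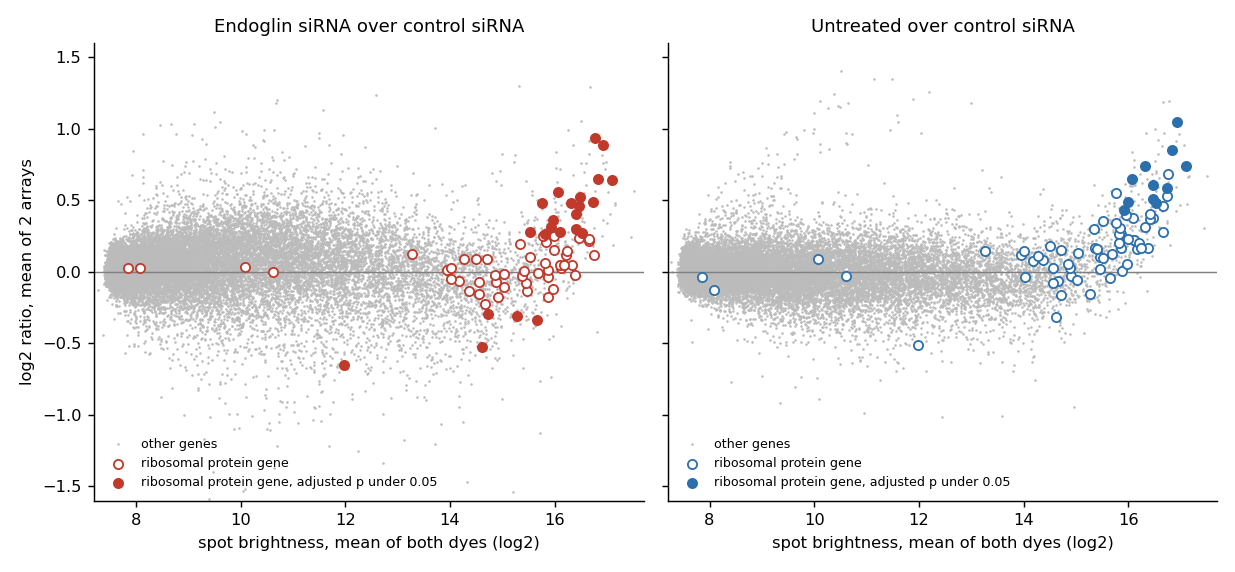
Mean log2 ratio to control siRNA (vertical axis) against spot brightness on a log2 scale (horizontal axis), for endoglin siRNA (left) and untreated cells (right). Grey points are other genes, large open points are ribosomal protein genes and filled points are those that passed; a few other genes beyond the vertical axis are not drawn. Ratios of members and of other genes both climb at the bright end.

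Abundant transcripts that encode no ribosomal protein went both ways. Of 26 tested genes of that list, 7 were higher and 8 lower under endoglin siRNA, and 5 were higher and 0 lower in untreated cells. Under endoglin siRNA the 7 higher genes had a log2 brightness of at least 15.86 (Vim). The 8 lower ones had at most 14.65 (Aldoa), and the median member had 15.8. Of the 5 higher in untreated cells, Spp1 was dimmer, at 13.0. Tmsb4x, a binder of actin monomers, had 1.39 and 1.20 under endoglin siRNA and 1.02 and 0.91 in untreated cells (limma adjusted p = 0.00123 and 0.00807). The class I histocompatibility light chain gene B2m had a mean of 1.06 under endoglin siRNA (adjusted p = 0.00883). The heat shock protein gene Hspcb (Hsp90ab1 in RefSeq) had -1.42 and -1.52 under endoglin siRNA and -0.27 and -0.29 in untreated cells, and its difference between the groups passed at -1.19 (adjusted p = 0.0230). Spp1, osteopontin, differed likewise by -1.67 (adjusted p = 0.0260).

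Several members were measured by more than 1 probe. Of 24 members with more than 1 usable probe, the brightest probe had a higher ratio than the dimmest in 15 under endoglin siRNA and in 19 in untreated cells. Probes of a gene differ in sequence too, and cross-hybridization was not tested. The probes lay on opposite sides of 0 in 14 of the 24 under endoglin siRNA. No gene had probes more than 1 log2 unit apart. Rpl13 had 0.32 by its brightest and -0.25 by its dimmest probe under endoglin siRNA, and 0.43 and -0.15 in untreated cells. Rpl31 had 0.48 and -0.10, and in untreated cells 0.55 and 0.00. Rps20 had 0.25 and -0.19, and in untreated cells 0.48 and -0.03. Rps15 ran the other way, with its brightest probe the lower. Averaging all usable probes left 19 members called under endoglin siRNA and 7 in untreated cells, where 6.91% and 0.517% of all genes passed.

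**Figure D4:**
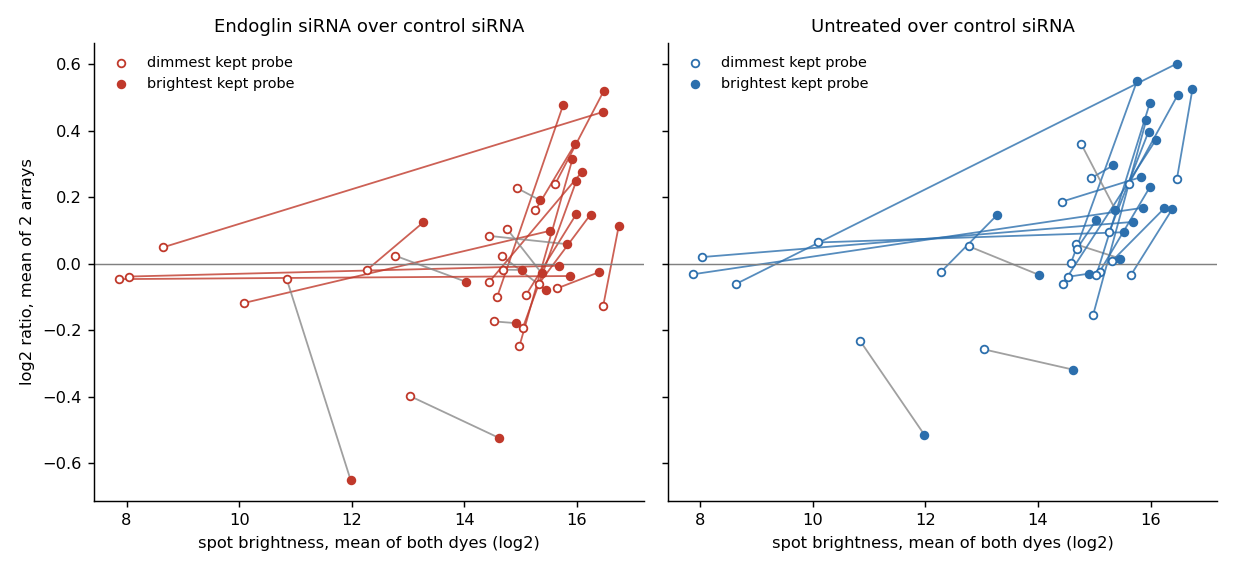
Mean log2 ratio to control siRNA (vertical axis) of the dimmest (open) and brightest (filled) usable probe of each of 24 members, against spot brightness on a log2 scale (horizontal axis). Coloured lines join probes where the brightest has the higher ratio (15 genes under endoglin siRNA, 19 in untreated cells) and grey lines the reverse.

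The way intensities were normalized set the size of the members' ratios. Before normalization the median member signal was 69393 to 92968 in Cy5 and 20206 to 24699 in Cy3, while the median gene signal was 134 to 316 in Cy5 and 62.1 to 98.3 in Cy3. With median centring in place of loess, which leaves any trend with brightness in the data, the members' median became 1.44 under endoglin siRNA. In untreated cells it became 0.48. Under this setting 0 members and 0 of all genes passed, and the median of all genes was 0.32 and 0.01. The log ratios of the scanner software gave medians of -0.02 and 0.00 with 0 members called, and 0 of all genes passed there as well. At an unadjusted p under 0.05 there were 16 and 12 members (22.5% and 16.9%), against 27.8% and 13.0% of all genes. A wider loess span of 0.7 left 7 higher and 5 lower under endoglin siRNA and 10 higher and 0 lower in untreated cells. Of all genes, 5.32% were then higher and 2.74% lower under endoglin siRNA, and 0.423% and 0.282% in untreated cells. When ribosomal protein probes were left out of the loess curve, 23 and 15 members passed and the medians were 0.06 and 0.19. Of all genes, 8.07% and 0.732% passed there. All 18 higher members under endoglin siRNA and all 11 in untreated cells kept a positive ratio under these settings, and the 5 lower members turned positive under median centring.

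**Figure D5:**
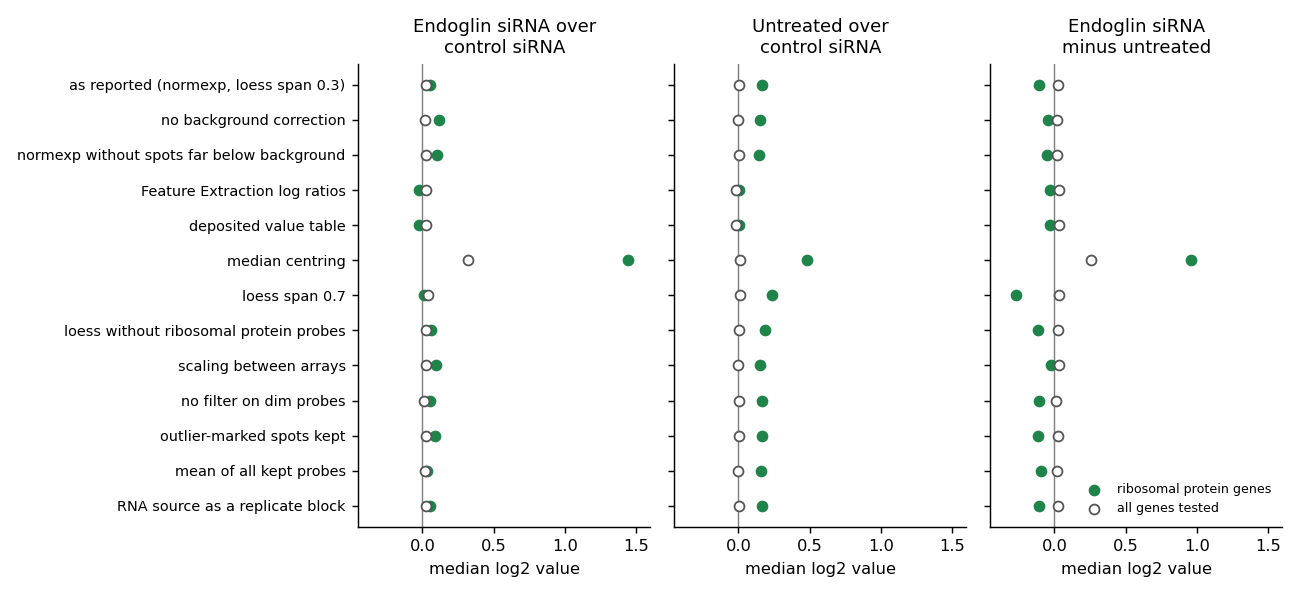
Median log2 value of the ribosomal protein genes (green) and of all genes tested (open) under each way of processing, in the 3 comparisons. Median centring moves the members' medians to 1.44, 0.48 and 0.96, and the scanner software's log ratios bring the first 2 to -0.02 and 0.00.

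The rest of the translation machinery was described by lists. Of 19 tested elongation factors and other transcripts with a pyrimidine tract, 1 was higher and 1 lower under endoglin siRNA, with a median of 0.00, and 0 passed in untreated cells. Eif3s6 (Eif3e in RefSeq), a subunit of initiation factor 3, was higher with 0.21 and 0.44 (limma adjusted p = 0.0396). Eef2, which moves the ribosome along the mRNA, was lower with -0.36 and -0.40 (adjusted p = 0.0261), and had -0.16 and -0.39 in untreated cells (adjusted p = 0.167). Tpt1 and Fau had the largest untreated means, 0.47 and 0.36 (adjusted p = 0.0664 and 0.0649). At an unadjusted p under 0.05, 6 of the 19 (31.6%) differed in untreated cells, against 13.6% of all genes.

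Of 29 initiation factors, 1 was higher and 2 lower under endoglin siRNA, and 0 were higher and 1 lower in untreated cells. Eif4g1, the scaffold of the cap-binding complex, had -0.74 and -0.66 under endoglin siRNA and -0.44 and -0.65 in untreated cells (limma adjusted p = 0.00492 and 0.0337). Eif5a had -0.54 and -0.55 (adjusted p = 0.00675) and Eif5b had 0.26 and 0.29 (adjusted p = 0.0362).

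Few ribosome biogenesis factors and mitochondrial ribosomal proteins passed. Of 41 biogenesis factors, 3 were higher and 0 lower, with a median of 0.07 against -0.03 in untreated cells. Nucleostemin (Gnl3) had 0.26 and 0.35 under endoglin siRNA and 0.04 and -0.02 in untreated cells (limma adjusted p = 0.0297 and 0.970). RGD1311709 (Mrto4 in RefSeq) at 0.34 and Riok2 at 0.32 also passed. Of 61 mitochondrial ribosomal protein genes, 7 were higher and 0 lower, with a median of 0.08 against 0.02 in untreated cells. Mrps35 at 0.35, Mrpl47 at 0.33, Mrpl55 at 0.33 and Mrps25 at 0.32 were the largest of them. Their median brightness was 11.2 and 11.6 on the log2 scale, which lies in the second brightest 10% of all genes. In that range the median of all genes under endoglin siRNA was 0.07, and 14.7% were higher. In the difference between endoglin siRNA and untreated, the medians of these lists were 0.13 and 0.10, and that of all genes of the range was 0.08. At an unadjusted p under 0.05, 7 biogenesis factors (17.1%) and 8 mitochondrial genes (13.1%) differed in untreated cells, near the 13.6% of all genes, and 0 passed.

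A further 306 tested genes were described on the array as ribosomal proteins or similar to one under other names, many of them predicted copies. Of these, 8 were higher and 15 lower under endoglin siRNA, and 4 were higher and 0 lower in untreated cells. Of all genes, 5.24% were higher and 2.85% lower under endoglin siRNA, and 0.431% and 0.266% in untreated cells. The medians of the 306 genes were -0.03, 0.01 and, for the difference, -0.06. Their median log2 brightness was 13.2, against 15.8 for the members. Stellate cell markers were detected: 17 of 18 could be tested, of which 6 were higher and 2 lower under endoglin siRNA and 5 higher and 0 lower in untreated cells. Col1a1 was lower under endoglin siRNA at -0.89 (limma adjusted p = 0.00327), and Cygb was higher in both comparisons at 0.76 and 1.00 (adjusted p = 0.00861 and 0.0153). Of 8 tested sinusoidal endothelial markers Kdr was higher at 0.87 and Flt1 lower at -0.77 under endoglin siRNA, and of 3 cholangiocyte markers Sox9 was lower at -1.09. None of 8 markers of portal fibroblasts and mesothelial cells passed by limma, and 0 of them had an unadjusted p under 0.05 under endoglin siRNA and 2 in untreated cells.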

How the data were processed

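RNA of 4 Cy5 samples was hybridized against Cy3 control siRNA RNA. Per the file headers, the authors extracted signals with Agilent Feature Extraction 9.5.1.1: its signal columns hold linear intensity per spot, and its log ratios are log10, Cy5 over Cy3. The deposited value table repeats these log10 ratios, with the sign turned on both untreated arrays; the labelled dyes set the direction here.

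Mean signals were corrected by normexp (offset 50) and normalized by loess (span 0.3, controls at weight 0). Outlier-marked spots were left out and spots of a probe averaged. Among 41012 probes for genes, 30050 exceeded background clearly in 1 dye on at least 2 arrays and 29860 had a value on every array. The brightest stood for a gene, giving 25546 genes. The test was limma's moderated one (version 3.58.1 under R 4.3.3, with the package data.table, version 1.17.8), with 2 group means, a shared spread, prior degrees of freedom of 5.25 and Benjamini-Hochberg adjustment over all genes at 0.05; ± is the standard error of that fit. The script was tested on simulated data. Python 3.11.15 with pandas 2.3.3 and matplotlib 3.10.9 summarised the tables.

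Members and lists were chosen with earlier results of these data known, so lists have counts and medians and no test. Named were the 6 highest and 6 lowest members of each comparison, the stalk genes, paralogues and untested members, and in other lists up to 4 that passed or else the largest 2. Members with a call were also named; some genes are not reported here. Alternatives covered background correction, normalization, filters, probe choice, RNA source and left-out arrays.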

Additional observations from a re-analysis of the deposited data

How the results depend on the processing

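Precision was limited by 2 arrays a group; all 130 member spots were well above background in both dyes. The members called under endoglin siRNA numbered 28 without background correction, 29 without the 10 spots far below background, 23 with loess without member probes or without the filter on dim probes, 24 with outlier-marked spots kept and 19 with probes averaged. They were 12 with loess span 0.7 and 0 with scanner log ratios, deposited log ratios, scaling between arrays or median centring; leaving out 1 array gave 9 to 15. In untreated cells the calls were 16, 16, 15, 21, 12 and 7 in the first order, 10 with span 0.7 and 0 under the same 4 settings, and 0 to 27 with 1 array left out.

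The median under endoglin siRNA was 0.12 without background correction, 0.11 without the spots far below background, -0.02 with scanner log ratios or the deposited table (-0.0220 and -0.0219), 1.44 with median centring, 0.0101 with span 0.7, 0.09 with scaling, 0.09 with outlier-marked spots kept (0.0933 and 0.0868), and 0.0464 to 0.0824 with 1 array left out. In untreated cells it was 0.00 (0.0041 and 0.0040), 0.48 with median centring, 0.23 with span 0.7, and 0.16 to 0.20 with 1 array left out. The difference was -0.03 with scanner log ratios, the table or scaling (-0.0285, -0.0286 and -0.0265), 0.96 with median centring and -0.27 with span 0.7; 0 members passed in it under any setting. Under median centring the ratios of Rpl4, Rps15, Rps21, Rps9 and Rpsa turned to 0.99, 0.37, 1.05, 1.03 and 0.76.

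The RNA source is a number shared by arrays of both groups, and their deviations correlated at 0.293 across genes, which does not show pairing. With the RNA source as a replicate block, 27 members passed under endoglin siRNA (22 higher, 5 lower) and 28 in untreated cells (26 higher, 2 lower), and the medians were as without it. Of all genes, 15.4% passed under endoglin siRNA in that fit and 3.97% in untreated cells. The cause of these changes was not tested.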

Other observations

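A few member spots differed between arrays in both dyes at once. Over the 4 arrays the highest Cy3 signal, always control siRNA RNA, was 1.17 times the lowest in the median member, and 65 of 71 members stayed under 2 times. Rps26 spanned 25.1 times in Cy3 and 32.2 times in Cy5. Its signals in Cy5 and Cy3 were 195 and 85.8 on the 1-animal untreated array, 1037 and 369 on the 1-animal endoglin siRNA array, 6272 and 1783 on the pooled untreated array and 6072 and 2152 on the pooled endoglin siRNA array. Its log2 ratios stayed between 0.01 and 0.12. Rps27 was next, spanning 4.07 times in Cy3, and was lowest on the 1-animal endoglin siRNA array. Rpl31 had 56394 in Cy5 and 13983 in Cy3 on the 1-animal untreated array, and at least 151820 and 27116 on the others. Its log2 ratio was 0.34 on that array and 0.40 to 0.75 on the others. These genes were chosen after their values were seen, and no cause was tested.

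The members that could not be tested were measured when outlier-marked spots were kept. Rpl9 then had a mean of 0.35 under endoglin siRNA (limma adjusted p = 0.0274), Rps16 had 0.32 (adjusted p = 0.0457), Rpl14 had 0.52 (adjusted p = 0.128) and Rps24 had 0.11 (adjusted p = 0.324). In untreated cells Rps16 had 0.53 (adjusted p = 0.0361), and Rpl14, Rpl9 and Rps24 had 0.46, 0.31 and 0.12 and did not pass.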
